A study of Caenorhabditis elegans with 27 samples.

Results

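C-type lectin (clec) genes of *C. elegans* were chosen as the protein-coding genes whose symbol in the WBcel235 annotation is clec- followed by a number. The annotation holds 240 such genes, and 99 of them (41.2%) carried an siRNA value in the table of counts, out of 10062 genes with siRNAs and 20150 sRNAs in all. The rule used names only and no measured value. The other 141 clec genes were not analysed here. For an siRNA the measured value was the summed number of reads antisense to the coding sequence of the gene, so each value describes the siRNAs made against a clec mRNA and not the mRNA itself.

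The samples were sRNA-seq libraries of whole adult hermaphrodites, collected on day 1 of adulthood after growth in parallel at 22 °C. Wild type was strain N2 with 6 libraries, and each of 7 mutants that lack one or more poly(U) polymerase (*pup*) genes had 3 libraries. The single mutants were *pup-1(0)* (allele *tm1021*), *pup-2(0)* (*tm4344*), *pup-3(0)* (*tm5089*) and *pup-4(0)* (*om141*). The double mutant, *pup-1/-2(0)*, carried *om129*, a deletion that removes both neighbouring genes. The triple mutant carried *om129* with the *pup-3* allele *tm5089*, and the quadruple mutant had *om141* of *pup-4* in addition to these. The harvested mutants lacked the maternal as well as the zygotic product. Strains that lack *pup-1* or *pup-2* were maintained over a balancer chromosome, and the harvested animals were offspring of homozygous mothers. The study's methods describe the libraries of each genotype as independent replicates. They also speak of 3 wild-type replicates run in parallel with each mutant, but the labels do not say which, so all 6 were used in each comparison. In whole animals, a change in the number of cells of a type cannot be told apart from a change in RNA per cell.

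C-type lectins are proteins with a carbohydrate-binding fold, and in nematodes the family has expanded into one of the larger gene families. Many members are secreted or membrane-bound proteins of the intestine and other epithelia, and a subset is induced by bacterial infection, where some act as antimicrobial effectors. Most endogenous siRNAs of the worm are made by RNA-dependent RNA polymerases that copy an mRNA and are bound by Argonaute proteins, which either silence the matching gene or, for CSR-1, license its expression in the germline. Poly(U) polymerases add uridines to RNA 3′ ends, and PUP-1 (also CDE-1) acts on the siRNAs bound by CSR-1.

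The libraries held between 972048 and 17562388 counts (median 6692414), and 5 libraries, all of them replicate 1 of their genotype, held fewer than 2500000. Depth sets how far a low value can be read, since 3 counts corresponded to 0.144 CPM (counts scaled to the TMM-adjusted size of the library) in the deepest library and to 3.74 CPM in the shallowest. Of the deleted genes, siRNAs were listed for *pup-3* alone, at 157 to 187 CPM in *pup-3(0)* against 34.5 to 87.0 CPM in wild type. These siRNAs do not check a deletion, because reads from the remaining part of the gene still count. The *mir-35* family, made in the germline and embryo, was present in all 27 libraries (12167 to 130021 CPM), piRNAs made up 1.78 to 5.72% of counts, and the neuronal miRNA *mir-124* was near its limit of detection (0 to 11.2 CPM). Wild type replicate 1 stood apart, with 91642 CPM of the muscle miRNA *mir-1* against 3100 to 19835 CPM in the other 5 wild-type libraries. It was the highest of the 6 for 21 of the 41 tested clec siRNAs and the lowest for 9, and in each of the other wild-type libraries between 0 and 10 members were highest. Double mutant replicate 1 stood apart from the other libraries of its genotype, with 19.7% of counts on miRNAs against 47.4 and 46.0%, which were the highest of all 27 libraries, and with 16.0% of clec counts on *clec-255* against 59.0 and 61.2%. Where leaving out one of these libraries ended a call or moved a called log2FC that is printed here by more than 1.5 times in fold, the value without it is given as well.

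Few clec genes had deep siRNA coverage. The 99 members had a median of 90 counts summed over all libraries, against 1316 for all siRNAs, and 14 members had 10 counts or fewer. Of the 99, 41 passed the filter on low counts (41.4%, against 71.4% of all siRNAs, or 7184 of 10062), and 58 did not and have no test. The filter asked for 1.49 CPM, here of the unadjusted library total, in at least 3 libraries, and it can pass a gene through the genotype in which it is high. Of the 41, 13 (31.7%, against 6.42% of all siRNAs) passed only with the libraries of the double, triple and quadruple mutants, so counts over the 41 do not describe the 99. Counts were concentrated, with 99.3% of the 335737 clec counts on the 41 tested members and 62.7% on *clec-31* and *clec-255* alone. The listed members lay on all 6 chromosomes, with 34 of the 86 clec genes of chromosome V, 26 of 53 on IV, 23 of 48 on II, 8 of 36 on I, 6 of 14 on III and 2 of 3 on X. Their median coding length was 1086 bases, against 906 for the clec genes not analysed. No untested member had more than 141 counts in all, and of the 112 counts of *clec-37*, named after its values were seen, 107 came from wild type replicate 2.

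In wild type, siRNA levels per kilobase (kb) of coding sequence differed widely between members. The highest was *clec-31* (chromosome V, 16856419 to 16858077), with 1020.7 ± 485 CPM per kb (SD, n = 6), followed by *clec-255* (chromosome V, 18769767 to 18770723) with 677 ± 311 CPM per kb. The next were *clec-158* at 162 ± 15.4, *clec-87* at 128 ± 25.4 and *clec-47* at 98.1 ± 11.1 CPM per kb. After these came *clec-193* at 54.6 ± 13.8, *clec-238* at 51.7 ± 10.8 and *clec-119* at 29.4 ± 9.12 CPM per kb. These 8 genes had the highest mean CPM in wild type, and *clec-91* (43.1 ± 8.38 CPM per kb) and *clec-88* (30.3 ± 9.54 CPM per kb), named after their values were seen, stood between *clec-238* and *clec-119* by length-scaled level. The ranges of neighbours in this order overlapped in 39 of 40 cases. The gap lay between *clec-47* and *clec-193*, where the lowest library of *clec-47* (92.3 CPM per kb) was above the highest of *clec-193* (71.7 CPM per kb). Of the 41 members, 14 exceeded 10 CPM per kb and 14 were under 1 CPM per kb.

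Together the 99 clec genes took 0.257 to 0.377% of siRNA counts in wild type (median 0.335%). In *pup-1(0)* their share was 0.159, 0.130 and 0.116%, and all 3 libraries were below every wild-type library. The share was 0.199 to 0.230% in *pup-2(0)*, 0.223 to 0.288% in *pup-3(0)*, 0.274 to 0.298% in *pup-4(0)*, 0.197 to 0.305% in the double, 0.207 to 0.233% in the triple and 0.212 to 0.243% in the quadruple mutant. The libraries of *pup-2(0)*, the triple and the quadruple mutant were thus also all below those of wild type. Only in *pup-1(0)* were all libraries below those of every other genotype. Much of this share was carried by *clec-31* and *clec-255*, which held 67.9 to 78.6% of clec counts in wild type and 36.2 to 47.7% in *pup-1(0)*.

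**Figure D1:**
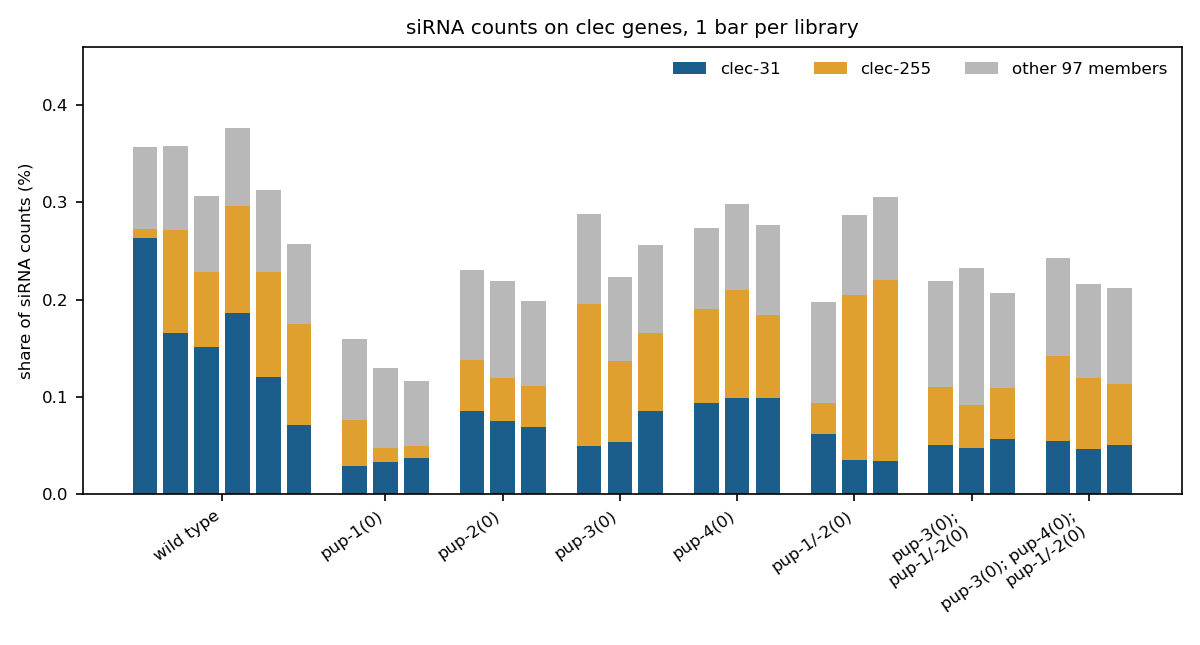
Share of siRNA counts (%) on the 99 clec genes in each of the 27 libraries, as stacked bars for *clec-31*, *clec-255* and the other 97 members, grouped by genotype. The 3 libraries of *pup-1(0)* reached 0.116 to 0.159%, below the 0.257 to 0.377% of wild type.

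The comparison of *pup-1(0)* with wild type asks which siRNAs depend on PUP-1. An siRNA is called differentially abundant (DA) where its level changed by more than 2-fold (log2 fold change, log2FC, beyond 1) with an adjusted p under 0.05. Here and below, the adjusted p is that of the edgeR quasi-likelihood test, corrected by Benjamini-Hochberg over all 9645 tested sRNAs. Loss of *pup-1* was accompanied by lower levels of 9 clec siRNAs and by higher levels of none. Among all tested siRNAs 16.4% were lower and 9.24% higher, and 9 of 41 is 22.0%. DESeq2 called 10 lower and 2 higher, against 1347 and 650 of all siRNAs. At an unadjusted p under 0.05, 6 clec siRNAs were higher and 11 lower, against 1803 and 2160 of 7184 siRNAs. The median log2FC was -0.48 over the 41 clec siRNAs and -0.21 over all siRNAs. The libraries of *pup-1(0)* lay entirely below wild type for 6 members, against 15.6% of all siRNAs, and 4 of these 6 were DA.

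The 4 DA members without overlap were *clec-119*, *clec-31*, *clec-204* and *clec-219*. The siRNAs of *clec-119* (chromosome II, 1255937 to 1258375) had 30.7 to 74.3 CPM with a median of 57.0 in wild type and 7.44, 6.70 and 7.06 CPM in *pup-1(0)*. Every mutant library was far below the lowest wild-type library. The log2FC was -2.93 ± 0.35 (SE, adjusted p = 4.07e-07), a 7.61-fold reduction. For *clec-31*, wild type had 460.3 to 2019.6 CPM with a median of 1101, and the 3 mutant libraries had 200.2, 257 and 263 CPM. Wild type itself was spread widely, with replicate 1 highest and replicate 6 lowest, yet did not reach the mutant values, and the log2FC was -2.22 ± 0.33 (SE, adjusted p = 9.91e-06), or -2.09 (adjusted p = 8.43e-07) without wild type replicate 1. The siRNAs of *clec-204* had 4.84 to 12.0 CPM with a median of 5.73 in wild type and 1.24, 1.63 and 1.52 CPM in *pup-1(0)*. These groups were also separate, with a log2FC of -2.11 ± 0.46 (SE, adjusted p = 0.000727), or -2.04 (adjusted p = 0.000448) without wild type replicate 1, its highest library. For *clec-219* the wild-type libraries had 1.61 to 12.7 CPM with a median of 2.22 and the mutant 0, 1.31 and 0.652 CPM. Here wild type replicate 1 alone held the highest value, and the log2FC of -2.07 ± 0.78 (SE, adjusted p = 0.0405) became -1.47 (adjusted p = 0.0638) without it. The call for *clec-219* was also lost without *pup-1(0)* replicate 1 at -1.76 (adjusted p = 0.115) or replicate 3 at -1.89 (adjusted p = 0.143), and the log2FC was -2.72 without replicate 2.

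The other 5 DA members overlapped wild type through 1 or 2 low wild-type libraries. For *clec-255*, wild type had 71.9 to 780.5 CPM with a median of 679.7, where the lowest was replicate 1 and the other 5 were at 508 CPM or more. In *pup-1(0)* the values were 327, 108 and 84.8 CPM, and the log2FC was -1.76 ± 0.57 (SE, adjusted p = 0.0185), or -2.10 (adjusted p = 0.00119) without wild type replicate 1. Without *pup-1(0)* replicate 2 it was -1.51 (adjusted p = 0.105) and without replicate 3 -1.43 (adjusted p = 0.108), so the call rests on these libraries, and without replicate 1 it was -2.58. All libraries of *pup-2(0)* and of the triple mutant were also below every wild-type library of *clec-255* except replicate 1, though not DA. The other 4, named after their values were seen apart from *clec-166*, were *clec-266*, *clec-143*, *clec-166* and *clec-29*. For *clec-266* the mutant had 1.24, 1.96 and 1.52 CPM, and wild type had 13.4 to 23.4 CPM except for 0.705 CPM in replicate 1. The log2FC was -3.24 ± 0.63 (SE, adjusted p = 0.000254) with that library and -3.58 (adjusted p = 5.94e-07) without it. For *clec-143* the mutant values were 4.34, 3.10 and 4.13 CPM and wild type had 10.6 to 22.3 CPM except for 1.41 CPM in replicate 1, and the log2FC was -1.95 ± 0.52 (SE, adjusted p = 0.00456), or -2.28 (adjusted p = 5.55e-05) without that library.

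Both *clec-166* and *clec-29* were at the limit of detection in *pup-1(0)*, where no library held more than 3 counts. The values of *clec-166* were 0.620, 0 and 0 CPM, and of *clec-29* 0, 0.327 and 0.109 CPM. In *pup-2(0)*, *clec-166* also held no more than 2 counts in any library. In wild type *clec-166* had 0 to 2.60 CPM with a median of 1.65, and *clec-29* had 0 to 3.19 CPM with a median of 1.65. Against a floor of 3 counts per library, *clec-166* was at least 1.65-fold lower (adjusted p = 0.00730) and *clec-29* at least 1.70-fold lower (adjusted p = 0.0305). The call for *clec-166* was lost without *pup-1(0)* replicate 2 or 3 (adjusted p = 0.0594 and 0.0814), and that for *clec-29* without any one of the 3 *pup-1(0)* libraries or without wild type replicate 5 (adjusted p from 0.0551 to 0.146).

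Abundant members did not all fall. For *clec-158*, wild type had 88.9 to 115.3 CPM with a median of 103 and *pup-1(0)* had 142.6, 166 and 156 CPM. All mutant libraries exceeded wild type, and the log2FC of 0.60 ± 0.11 (SE, adjusted p = 0.000102) was past the p threshold but under the fold threshold. For *clec-47* the mutant had 28.5, 42.6 and 25.7 CPM against 44.3 to 57.8 CPM with a median of 44.7 in wild type, with a log2FC of -0.53 ± 0.17 (SE, adjusted p = 0.0143), below wild type but again under the fold threshold. The log2FC of *clec-87* was -0.23 (adjusted p = 0.510), of *clec-193* -0.09 (adjusted p = 0.812) and of *clec-238* 0.27 (adjusted p = 0.410), none of which passed the test.

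**Figure D2:**
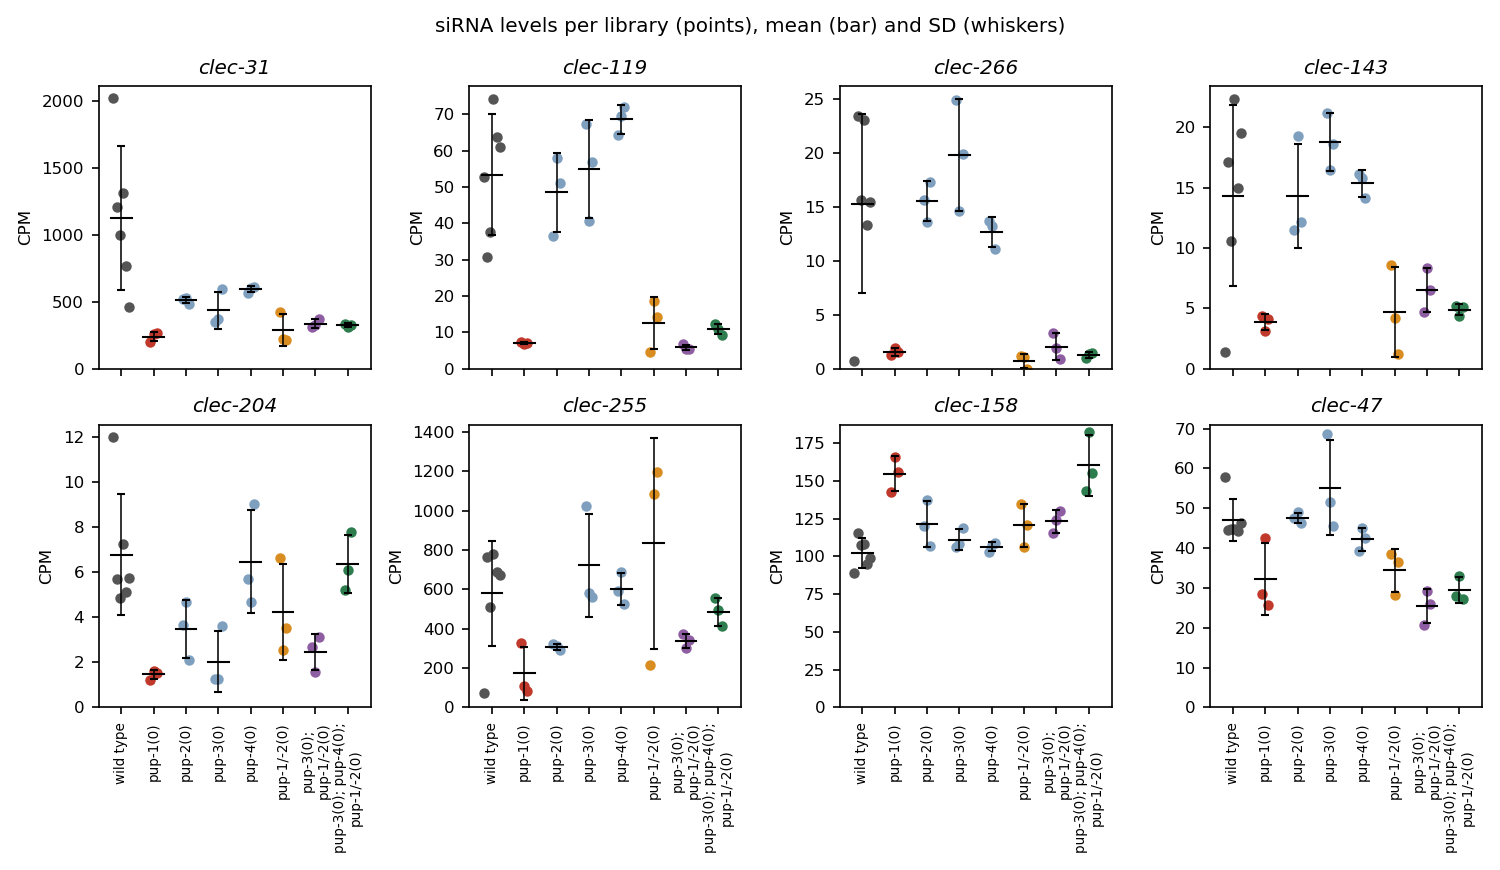
siRNA levels (CPM) of 8 clec genes in each library, with the mean (bar) and SD (whiskers, cut at 0) for each genotype. For *clec-119* the 4 genotypes that lack *pup-1* (red, orange, purple, green) stayed at or below 18.6 CPM while the other genotypes were at 30.7 CPM or more, whereas *clec-158* was not lower in any of them.

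The genotypes that lack *pup-1* are *pup-1(0)* and the double, triple and quadruple mutant, and all 4 were compared with the same 6 wild-type libraries, so their results are not independent. Relative to wild type, the double mutant had 11 clec siRNAs higher and 5 lower, against 10.2% and 16% of all siRNAs. In the triple mutant, 8 were higher and 4 lower, against 7.03% and 15.1%. In the quadruple mutant, 11 were higher and 4 lower, against 10.2% and 16.1%, and its libraries lay above wild type for 12 members and below for 4, against 21.5% and 19.4% of all siRNAs. Medians over the 41 members were 0.52, 0.00 and 0.41 in these strains in that order, and -0.12, -0.17 and -0.12 over all siRNAs. The clec medians include members that passed the filter only through these strains. The number of DA members with a rise was thus 0, 11, 8 and 11 over the 4 genotypes, and the number with a fall was 9, 5, 4 and 4. In total 22 members were DA in at least 1 of the 4, of which 13 were higher and 9 lower, and none was higher in one strain and lower in another. Over all siRNAs these shares were 42.9% DA in at least 1, 16.8% higher and 26.5% lower, with 0.459% in both directions. Of the 13 higher members, 7 had passed the filter only through the multiple mutants, namely *clec-126*, *clec-150*, *clec-5*, *clec-53*, *clec-63*, *clec-73* and *clec-79*, so that they could only be tested by being high there, and their rises are a description. In a count made after seeing the data, over the 28 members that passed without those libraries, 5 were higher in each of the 3 strains, against 9.3, 6.98 and 9.8% of the 6723 siRNAs that did so. Without double mutant replicate 1 or without wild type replicate 1, 20 members were DA in the double mutant in place of 16. Of the 53 calls against wild type, 36 remained with wild-type replicates 1 to 3 alone and 50 with replicates 4 to 6 alone.

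**Figure D3:**
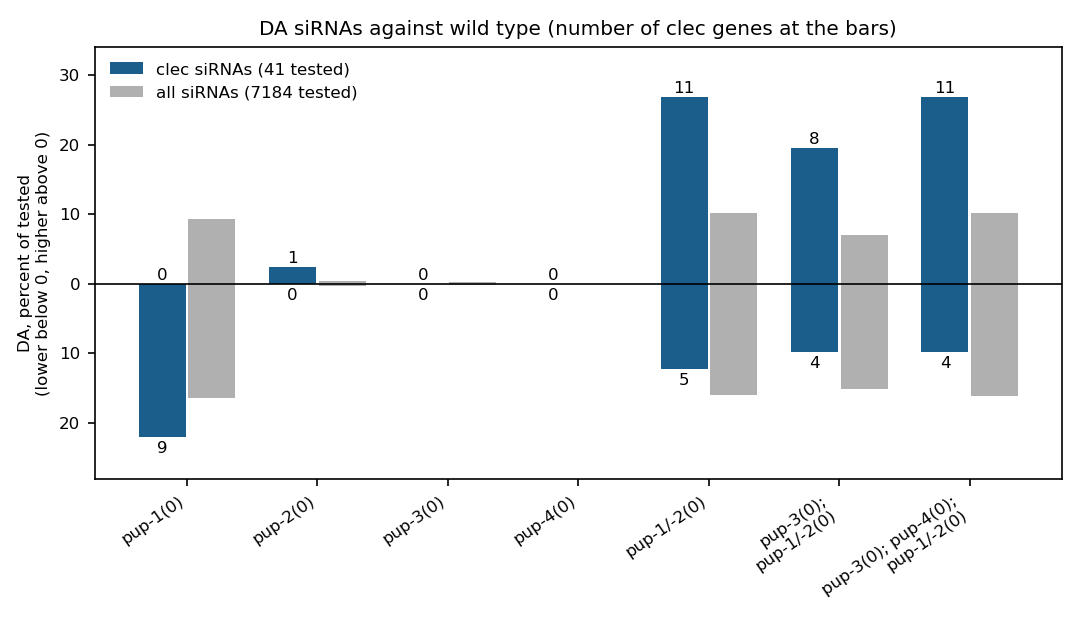
Percent of the 41 tested clec siRNAs and of all 7184 tested siRNAs called DA against wild type in each mutant, with higher calls above 0 and lower calls below. Bars of clec siRNAs are at 0 above the axis in *pup-1(0)*, where 9.24% of all siRNAs were higher.

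Lower levels in all 4 genotypes were found for 3 members, *clec-119*, *clec-31* and *clec-266*, against 7.78% of all siRNAs. Without wild type replicate 1 the count of members that changed the same way in all 4 was 5, with 4 lower and 1 higher. For *clec-119* the values were 4.64, 18.6 and 14.3 CPM in the double, 6.70, 5.52 and 5.35 CPM in the triple and 12.3, 10.9 and 9.42 CPM in the quadruple mutant. All 9 libraries were below wild type, and the log2FC was -2.10 ± 0.32 (SE, adjusted p = 1.69e-05) in the double, -3.23 ± 0.36 (SE, adjusted p = 2.76e-07) in the triple and -2.30 ± 0.32 (SE, adjusted p = 4.02e-06) in the quadruple mutant. In the 3 single mutants that keep *pup-1*, *clec-119* siRNAs ranged from 36.6 to 72.1 CPM, within the wild-type range. For *clec-31* the double mutant had 425, 225 and 215 CPM, the triple 310.4, 328 and 372 CPM and the quadruple 337, 309 and 327 CPM. These too were all below wild type, and the log2FC was -1.96 ± 0.32 (SE, adjusted p = 4.76e-05), -1.74 ± 0.32 (SE, adjusted p = 0.000169) and -1.79 ± 0.32 (SE, adjusted p = 9.98e-05). Low values of *clec-31* were not confined to strains that lack *pup-1*, though no other strain was DA against wild type. It had 347, 371 and 597 CPM in *pup-3(0)*, 525, 529 and 484 CPM in *pup-2(0)* and 568, 605 and 611 CPM in *pup-4(0)*. All of these were below every wild-type library except replicate 6, at 460 CPM, and the values of 347 and 371 CPM were below that library as well. The siRNAs of *clec-266* (chromosome X, 6617393 to 6622915) had 1.16, 1.06 and 0 CPM in the double, 3.35, 1.89 and 0.913 CPM in the triple and 1.01, 1.35 and 1.49 CPM in the quadruple mutant. They overlapped wild type only through the 0.705 CPM of wild type replicate 1, with log2FC of -4.39 ± 0.69 (SE, adjusted p = 2.31e-05), -3.14 ± 0.64 (SE, adjusted p = 0.000508) and -3.58 ± 0.60 (SE, adjusted p = 4.64e-05). Without that library the log2FC was -4.62 (adjusted p = 5.52e-08), -3.39 (adjusted p = 1.93e-06) and -3.87 (adjusted p = 7.16e-08).

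Other falls were not called in every genotype. The siRNAs of *clec-204* were lower in *pup-1(0)* and in the triple mutant at a log2FC of -1.42 (adjusted p = 0.0139), where the values were 2.68, 1.58 and 3.13 CPM, and the latter call was lost without triple mutant replicate 2, at -1.13 (adjusted p = 0.114). In the quadruple mutant *clec-204* had 5.22, 6.12 and 7.79 CPM, overlapping wild type. The siRNAs of *clec-143* were also lower in the double mutant at -1.64 (adjusted p = 0.0110) and in the quadruple mutant at -1.58 (adjusted p = 0.0107), calls that were lost without double mutant replicate 3 (adjusted p = 0.0782) and without quadruple mutant replicate 2 (adjusted p = 0.0553). Without double mutant replicate 1 the double mutant value was -2.48. The siRNAs of *clec-29* were at least 2.78-fold lower in the double mutant (adjusted p = 0.0249), and this call was lost without double mutant replicate 2 or 3 or wild type replicate 5 (adjusted p from 0.0609 to 0.107). The *mir-35* family overlapped between these genotypes and wild type, with 12167 to 89700 CPM in *pup-1(0)*, 23828 to 30702 in the double, 42277 to 57006 in the triple and 21674 to 32257 in the quadruple mutant against 22718 to 93851 CPM in wild type. For *mir-1* the range was 1209 to 7317 CPM in *pup-1(0)* and 1633 to 7920 CPM in the triple mutant. It was 8952 to 13910 CPM in the double and 8661 to 17234 CPM in the quadruple mutant. Wild type had 3100 to 91642 CPM, and the part of *mir-1* in the results was not tested.

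**Figure D4:**
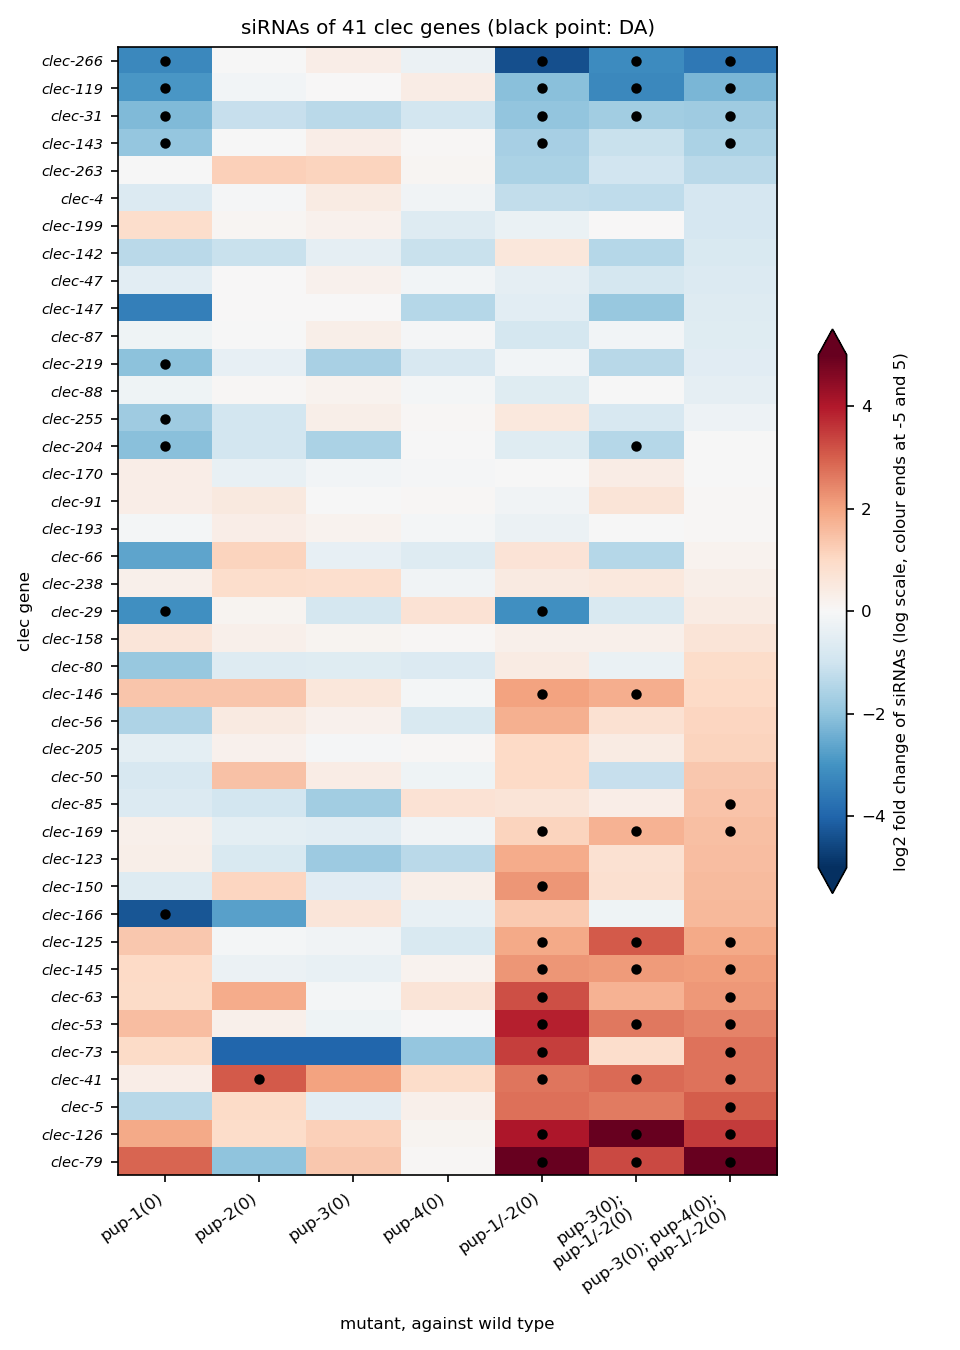
Heatmap of the log2FC of the 41 tested clec siRNAs (rows) in 7 mutants against wild type (columns), with a black dot where the siRNA was DA. Dots for *clec-119*, *clec-31* and *clec-266* run through all 4 mutants that lack *pup-1*, and the *pup-2(0)* column holds 1 dot.

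Rises were called in the multiple mutants. A group of 7 members, *clec-125*, *clec-126*, *clec-145*, *clec-169*, *clec-41*, *clec-53* and *clec-79*, was higher in all of the double, triple and quadruple mutants, against 4.7% of all siRNAs, and none of the 7 was DA in *pup-1(0)*. This does not show that they were unchanged there, with log2FC in *pup-1(0)* of 1.36 for *clec-125*, 1.89 for *clec-126*, 1.01 for *clec-145*, 0.27 for *clec-169* and 2.92 for *clec-79*. None of the 7 was DA between the double mutant and *pup-1(0)*. Of the 7, *clec-126*, *clec-53* and *clec-79* passed the filter only through these mutants. The count of 7 therefore cannot be set directly against the 4.7%. By fitted log2FC the first of the 7 in the quadruple mutant was *clec-79*. In wild type it held at most 3 counts in any library, or 0 to 0.260 CPM. It had 0.828, 2.53 and 6.07 CPM in the double, 0, 0.473 and 1.04 CPM in the triple and 2.78, 2.79 and 1.06 CPM in the quadruple mutant. All libraries of the double and the quadruple mutant exceeded wild type, by at least 3.99-fold (adjusted p = 0.000161) and at least 2.81-fold (adjusted p = 0.000341) against the floor. In the triple mutant 1 library was at 0 and the call (adjusted p = 0.0297) was lost without triple mutant replicate 2 or 3 or without wild type replicate 3 or 6 (adjusted p from 0.0512 to 0.254).

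The siRNAs of *clec-126* (chromosome II, 3519494 to 3520712) had 0 to 2.12 CPM with a median of 0.220 in wild type, 10.9, 4.22 and 0.506 CPM in the double, 18.8, 19.9 and 6.39 CPM in the triple and 2.36, 2.41 and 5.95 CPM in the quadruple mutant. Triple and quadruple libraries were all above wild type, and the log2FC was 4.05 ± 0.84 (SE, adjusted p = 0.000558), 5.56 ± 0.84 (SE, adjusted p = 1.63e-05) and 3.50 ± 0.83 (SE, adjusted p = 0.00184). It was 2.88 in the double without its replicate 1 and 2.91 in the quadruple mutant without its replicate 3. For *clec-41*, which encodes a lectin with reported antimicrobial activity, wild type had 0 to 3.19 CPM with a median of 0.742. The multiple mutants had 3.15, 9.08 and 11.6 CPM in the double, 16.1, 5.99 and 5.48 CPM in the triple and 7.91, 8.04 and 8.36 CPM in the quadruple mutant. Only the lowest double mutant library fell within the wild-type range, and the log2FC was 2.69 ± 0.58 (SE, adjusted p = 0.000814), 2.82 ± 0.60 (SE, adjusted p = 0.000740) and 2.72 ± 0.57 (SE, adjusted p = 0.000552). Without wild type replicate 5, the highest in wild type, these became 3.56, 3.69 and 3.59, and without triple mutant replicate 1 the triple value was 2.23. For *clec-53* wild type had 0 to 1.04 CPM with a median of 0.377, and the mutants had 6.13, 3.59 and 8.43 CPM, 2.01, 2.52 and 2.999 CPM and 2.19, 2.60 and 2.05 CPM in the same order. All 9 libraries were above wild type, with log2FC of 3.88 ± 0.66 (SE, adjusted p = 6.37e-05), 2.65 ± 0.69 (SE, adjusted p = 0.00436) and 2.48 ± 0.66 (SE, adjusted p = 0.00433). For *clec-63*, wild type had 0 to 0.594 CPM with a median of 0.366 and the quadruple mutant had 1.60, 1.97 and 1.70 CPM. These did not overlap either, but the log2FC of 2.17 ± 0.77 (SE, adjusted p = 0.0294) lost its call without any one of the 3 quadruple mutant libraries or without wild type replicate 2 or 3 (adjusted p from 0.0515 to 0.0861). In the double mutant *clec-63* had 2.32, 2.11 and 6.57 CPM and a log2FC of 3.22 (adjusted p = 0.00209), or 2.45 without replicate 3. Because *clec-126*, *clec-53* and *clec-63* passed the filter only through the multiple mutants, being high there was a condition of being tested. Their adjusted p and lack of overlap are therefore descriptions and not a test of a rise.

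**Figure D5:**
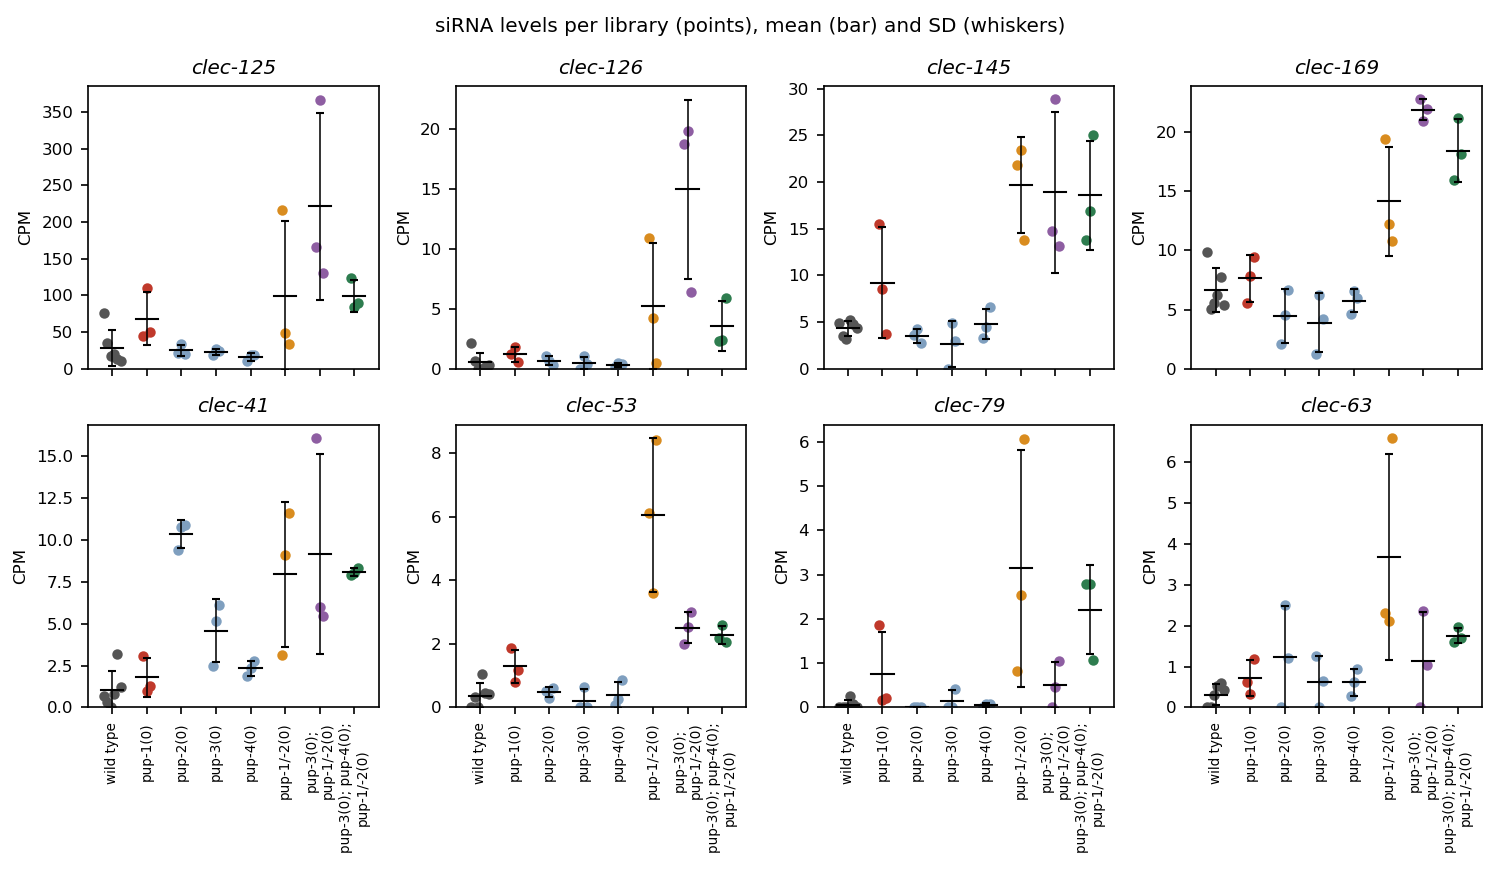
siRNA levels (CPM) of 8 clec genes in each library, with the mean (bar) and SD (whiskers, cut at 0) for each genotype. For *clec-53* and *clec-145* the double, triple and quadruple mutants (orange, purple, green) were all above the wild-type libraries (gray), while *clec-41* was also above wild type in *pup-2(0)*. Of the genes shown, *clec-126*, *clec-53*, *clec-63* and *clec-79* passed the filter on low counts only through the multiple mutants, so their rises are a description.

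The remaining members of this group are named after their values were seen. For *clec-145*, wild type had 3.23 to 5.20 CPM with a median of 4.56, and the multiple mutants had 21.9, 23.4 and 13.8 CPM, 14.7, 28.8 and 13.2 CPM and 13.8, 16.9 and 25.1 CPM in the double, triple and quadruple strain. No mutant library came within the wild-type range, and the log2FC was 2.19 (adjusted p = 0.000119), 2.15 (adjusted p = 0.000172) and 2.11 (adjusted p = 0.000139). In *pup-1(0)*, siRNAs of *clec-145* had 15.5, 8.49 and 3.69 CPM and were not DA, at a log2FC of 1.01 (adjusted p = 0.0644). For *clec-169*, wild type had 5.07 to 9.87 CPM with a median of 5.91, and the mutants had 19.4, 12.3 and 10.8 CPM, 22.8, 20.96 and 21.9 CPM and 15.9, 21.2 and 18.1 CPM. All were higher, with log2FC of 1.12 (adjusted p = 0.00480), 1.75 (adjusted p = 6.59e-05) and 1.50 (adjusted p = 0.000242), and the call in the double mutant was lost without its replicate 1, at 0.82 (adjusted p = 0.0569). For *clec-125*, wild type had 11.2 to 75.5 CPM with a median of 19.0, with the highest in replicate 1, and the mutants had 217, 48.8 and 33.4 CPM, 166, 367 and 131 CPM and 124, 84.1 and 89.2 CPM. The double mutant overlapped wild type and its log2FC of 1.90 (adjusted p = 0.00962) fell to 0.62 (adjusted p = 0.399) without replicate 1, whereas the triple at 3.05 (adjusted p = 0.000173) and the quadruple at 1.88 (adjusted p = 0.00917) did not overlap.

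A further 6 members were higher in 1 or 2 of the strains. In the double mutant these were *clec-146* at 2.02 (adjusted p = 0.00675), *clec-150* at 2.23 (adjusted p = 0.0144), *clec-63* and *clec-73* at 3.45 (adjusted p = 0.0161). The call for *clec-150* was lost without double mutant replicate 2, at 1.41 (adjusted p = 0.188), and that for *clec-73* also without replicate 2, at 2.95 (adjusted p = 0.0719). In the triple mutant *clec-146* was higher at 1.82 (adjusted p = 0.0177), a call lost without its replicate 2, at 1.43 (adjusted p = 0.147). The quadruple mutant calls were *clec-5*, *clec-63*, *clec-73* and *clec-85*. For *clec-85*, among the genes reported to respond to the p38 immune kinase pathway, the quadruple mutant libraries had 8.25, 10.6 and 20.1 CPM against 1.17 to 6.35 CPM with a median of 5.61 in wild type. All 3 were higher, with a log2FC of 1.44 (adjusted p = 0.00619) that became 0.98 (adjusted p = 0.109) without replicate 3. For *clec-5* the rise was at least 2.06-fold against the floor (adjusted p = 0.0296), lost without any one of 6 libraries (adjusted p from 0.0516 to 0.131), and for *clec-73* the log2FC of 2.71 (adjusted p = 0.0499) was lost without any one of 8 libraries (adjusted p from 0.0569 to 0.148). Both had passed the filter only through the multiple mutants, as had *clec-150* and *clec-63*, so the rises of these members are descriptions. Without wild type replicate 1 the log2FC of *clec-73* was 4.201 in the double and 3.38 in the quadruple mutant.

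Each step from one strain that lacks *pup-1* to the next removes a further gene. The first step also replaces the *pup-1* allele *tm1021* by *om129*. In that step, an effect of the allele cannot be told apart from loss of *pup-2*. Between the double mutant and *pup-1(0)*, 2 clec siRNAs were higher and none lower, against 4.22% of all siRNAs that were higher. The median log2FC was 1.31 over clec siRNAs and -0.13 over all siRNAs. Of the 41 clec siRNAs, 13 had passed the filter only through the multiple mutants (31.7%, against 6.42% of all siRNAs). The medians are therefore not directly comparable. Of the 2 DA members, *clec-166* had 0.662, 6.34 and 5.06 CPM in the double mutant. All 3 libraries exceeded those of *pup-1(0)*, and the difference was at least 4.51-fold against the floor (adjusted p = 0.00835). The other was *clec-255*, named here after its value was seen, with 218, 1086 and 1196 CPM in the double mutant and a log2FC of 2.28 (adjusted p = 0.0334), or 3.09 without *pup-1(0)* replicate 1, where the lowest library of the double mutant was below the highest of *pup-1(0)*. Both calls depended on few libraries, since the count was 0 without *pup-1(0)* replicate 2 or replicate 3, 1 without double mutant replicate 3, 4 without *pup-1(0)* replicate 1 and 10 without double mutant replicate 1. Between the triple mutant and the double mutant no clec siRNA was DA by edgeR or by DESeq2, against 0.626% of all siRNAs by edgeR. At an unadjusted p under 0.05, 4 were higher and 5 lower, against 366 and 632 of 7184 siRNAs. Without double mutant replicate 1 there were 4 DA. Between the quadruple mutant and the triple mutant none was DA by either tool, against 0.793% by edgeR. At an unadjusted p under 0.05, 6 were higher and 3 lower, against 615 and 384 of 7184 siRNAs. Whether loss of *pup-4* acts differently in the triple mutant background than in wild type was tested as an interaction. In it no clec siRNA was DA by either tool, against 0.223% of all siRNAs by edgeR, and 2 had an unadjusted p under 0.05, against 503 of 7184 siRNAs.

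Loss of *pup-2*, *pup-3* or *pup-4* alone was accompanied by few calls. In *pup-2(0)* 1 clec siRNA was higher and none lower, against 0.432% of all siRNAs that were higher. At an unadjusted p under 0.05, 7 clec siRNAs were higher and 4 lower there, against 280 and 322 of 7184 siRNAs. DESeq2 called 1 higher and 1 lower, against 46 and 53 of all siRNAs. The member called by edgeR was *clec-41*, with 9.40, 10.8 and 10.9 CPM against 0 to 3.19 CPM with a median of 0.742 in wild type, and the groups did not overlap. The log2FC was 3.08 ± 0.58 (SE, adjusted p = 0.00895), an 8.46-fold increase, or 3.95 without wild type replicate 5, and in a fit of these genotypes alone it was 3.14 (adjusted p = 0.396) and no longer DA. Without *pup-2(0)* replicate 1 or wild type replicate 6 a further member was DA, for a total of 2. In *pup-3(0)*, siRNAs of *clec-41* had 2.49, 5.16 and 6.14 CPM and in *pup-4(0)* 1.88, 2.37 and 2.75 CPM, and both groups overlapped wild type. In *pup-3(0)* no clec siRNA was DA by edgeR, against 0.501% of all siRNAs in either direction, while DESeq2 called 3 lower, against 59 of all siRNAs. At an unadjusted p under 0.05, 2 were higher and 3 lower, against 335 and 459 of 7184 siRNAs. Leaving out 1 library gave 0 to 2 DA members in *pup-3(0)*, 2 without wild type replicate 3 or 5, 0 without *pup-3(0)* replicate 1 or 2 and 1 without *pup-3(0)* replicate 3 or wild type replicate 1, 2, 4 or 6. In *pup-4(0)* none was DA by either tool, against 0.0696% by edgeR. There 1 was lower at an unadjusted p under 0.05, against 497 of 7184 siRNAs.

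The single mutants can also be set against each other. Relative to *pup-2(0)*, 6 clec siRNAs were lower in *pup-1(0)* and none higher (25.7% of all siRNAs were DA in either direction). Relative to *pup-3(0)*, 5 were lower and 1 higher (25.4%), and relative to *pup-4(0)* 9 were lower and 1 higher (21.6%), a total of 10 that was 6 without *pup-1(0)* replicate 2. In all 3 comparisons *clec-119*, *clec-143* and *clec-266* were lower, with log2FC for *clec-119* of -2.80 (adjusted p = 2.55e-06), -2.94 (adjusted p = 1.54e-06) and -3.29 (adjusted p = 5.77e-07). The call for *clec-143* relative to *pup-2(0)* was lost without *pup-1(0)* replicate 2 (adjusted p = 0.0561) or *pup-2(0)* replicate 2 (adjusted p = 0.0586). The comparisons share the *pup-1(0)* libraries. For *clec-41* the difference between *pup-1(0)* and *pup-2(0)* was -2.75 (adjusted p = 0.00678), with 3.10, 0.980 and 1.30 CPM in *pup-1(0)*, all below *pup-2(0)*. The siRNAs of *clec-31* were lower in *pup-1(0)* than in *pup-2(0)* at a log2FC of -1.09 (adjusted p = 0.0169), a call lost without *pup-1(0)* replicate 1 at -0.96 (adjusted p = 0.0738), and lower than in *pup-4(0)* at -1.30 (adjusted p = 0.00566).

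Several tested members are neighbours in the genome, and the pairs given here were named after their values were seen. On chromosome II, *clec-125* and *clec-126* lie 595 bases apart on the same strand with no gene between, and both were higher in all 3 multiple mutants. Also on II, *clec-145* and *clec-146* lie 79 bases apart on the same strand, and both were higher in the double mutant and the triple mutant. On chromosome V, *clec-204* and *clec-205* lie 589 bases apart on the same strand, and in *pup-1(0)* the siRNAs of *clec-204* were lower while *clec-205* had a log2FC of -0.48 (adjusted p = 0.6996). On chromosome IV, *clec-169* and *clec-170* lie 2243 bases apart on the same strand, and in the quadruple mutant *clec-169* was higher while *clec-170* had a log2FC of -0.03 (adjusted p = 0.918). How reads that match several near-identical genes were counted is not given in the sources used here, so values of tandem copies may share reads. Of members named here, *clec-126*, *clec-143*, *clec-145*, *clec-266*, *clec-87*, *clec-91*, *clec-88* and *clec-85* overlap another protein-coding gene in the annotation, for the last 2 also on the same strand, where reads antisense to both coding sequences may count for either. The values of these 8 are uncertain where the exons of the overlapping genes coincide.

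Of the members with a described role, 4 were listed. Beside *clec-41*, these were *clec-42*, an antimicrobial relative, *clec-52*, induced by infection, and *clec-38*, a transmembrane protein of axon guidance. None of the 3 passed the filter. In wild type the siRNAs of *clec-42* had 0.911 ± 0.666 CPM (SD, n = 6). In the quadruple mutant they had 0.0677 ± 0.0182 CPM (SD, n = 3), and no library had more than 1 count. The siRNAs of *clec-52* had 20 counts in all, with 0 in wild type and in the 4 single mutants and up to 7 counts per library in the multiple mutants. The siRNAs of *clec-38* had 16 counts in all, spread over 8 libraries. The others for which a role was noted, *clec-39*, *clec-49*, *clec-60*, *clec-61* and *clec-70*, were not analysed here.

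Other immune effector families (lysozymes, saposin-like proteins, antibacterial factors, caenacins, thaumatins and galectins) gave a small set for context, with 18 listed genes of 81 annotated and 10 tested. In *pup-1(0)* 1 of the 10 was higher and none lower, against 9.24 and 16.4% of all siRNAs, with a median log2FC of 0.65, where the clec median was -0.48. Higher levels were called for 5 of the 10 in the double, 3 in the triple and 4 in the quadruple mutant, against 10.2, 7.03 and 10.2% of all siRNAs, and lower levels for none, against 16, 15.1 and 16.1%. In *pup-2(0)* and *pup-3(0)* 1 was higher, against 0.432 and 0.306% of all siRNAs, and in *pup-4(0)* none was. How many of the 10 passed the filter only through the multiple mutants was not examined. The difference between the families was not tested.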

How the data were processed

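Small RNAs of 27 libraries were measured by sRNA-seq after treatment with RNA 5′ polyphosphatase. The authors trimmed 3′ adapters with cutadapt and kept reads from 15 nt up to a set upper length. They aligned these with HISAT2 to the WS284 genome and counted reads with smalldisco. The deposited values are raw counts, and an siRNA is the sum of reads antisense to the coding sequence of 1 gene. Handling of reads with several matches is not given in the sources used here. Gene names, positions and coding lengths came from the Ensembl WBcel235 annotation, in which 20147 of 20150 IDs were found.

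Genotypes were compared with edgeR 4.0.16 (R 4.3.3, TMM scaling, filterByExpr with a minimum count of 10, robust quasi-likelihood test) in 1 fit of all libraries, with Benjamini-Hochberg adjustment over 9645 sRNAs. The study also used factors of unwanted variation (k = 6) whose functions are not stated, so these were tried as an alternative, as were DESeq2 1.42.0, other scalings and filters, a replicate block, fits of fewer genotypes and each library left out. Scripts were tested on simulated data. Named genes were the 8 highest in wild type, the 5 largest non-overlapping DA rises and falls for *pup-1(0)* and for the quadruple mutant, DA members of the other single mutants, members with a described role, and non-overlapping DA members between strains that lack *pup-1*. Members and lists were chosen with earlier results of these data known.

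Pairing by replicate number was judged by correlated deviations from the group means. A set minimum was met in all libraries (r from 0.188 to 0.399) only for *pup-1(0)* and *pup-2(0)*. At lower r, 3 libraries were also closest to their own number for the double mutant against *pup-1(0)* (0.0499 to 0.127). The same held for the triple against the double mutant (0.0860 to 0.210). The depth was 972048 to 17562388 counts per library. A floor of 3 counts per library covers counting error only, since reads are not independent molecules.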

Additional observations from a re-analysis of the deposited data

Results flagged for a closer look

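In wild type, 27 clec siRNAs and 2 values per library were examined for 1 library that stood apart from the other 5 by the gap to its nearest neighbour relative to the whole range. For values with a normal distribution, chance gives about 1 such case in 20 groups. This rate does not apply to members with values at or near 0. Of the 9 cases found, 7 were replicate 1. Its siRNAs of *clec-204* were at 12.0 CPM (others 4.84 to 7.27), of *clec-219* at 12.7 CPM (others 1.61 to 2.60) and of *clec-47* at 57.8 CPM (others 44.3 to 46.3). At the level of 3 counts in that library, *clec-126*, *clec-5* and *clec-73* were each at 2.12 CPM, where the others reached at most 0.633, 0.260 and 0.371 CPM. The muscle miRNA *mir-1* was at 91642 CPM there (others 3100 to 19835). Replicate 4 was apart for *clec-79* at 0.260 CPM (others at most 0.0742), and replicate 3 for *clec-85* at 1.17 CPM (others 4.60 to 6.35). The effect of losing *pup-4* differed between the wild-type and the triple mutant background for 0 clec siRNAs by edgeR and by DESeq2, with 2 at an unadjusted p under 0.05, against 503 of 7184 siRNAs.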

How the results depend on the processing

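Of the 77 DA calls of a clec siRNA in 1 comparison, 41 calls of 13 members remained under every alternative that could be fitted and without any 1 library, among them *clec-119* and *clec-266* in all comparisons where they were called. The 13 include *clec-126*, *clec-53*, *clec-63* and *clec-79*, which were tested only because they were high in the multiple mutants, so their remaining calls are a description. With a minimum count of 50, only 56 of the 77 could be fitted. The cause of the other losses was not tested. With 6 factors of unwanted variation, 68 of 77 calls remained and 2 reversed, *clec-150* in *pup-1/-2(0)* at -0.047 (adjusted p = 0.969) and *clec-29* in *pup-1(0)* at 0.38 (adjusted p = 0.943). Depth limits members at or near 3 counts per library, and a call that is absent there does not show that levels were equal.

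Counts of DA members that moved by more than 1.5 times were as follows. With the factors, *pup-1(0)* had 11 against *pup-2(0)* and 11 against *pup-3(0)*, *pup-1/-2(0)* had 4 against *pup-1(0)*, *pup-3(0)* had 2, the triple against the double mutant had 1, and 6 members changed the same way in all 4 strains that lack *pup-1*. DESeq2 gave 6 for *pup-1/-2(0)* against *pup-1(0)*, 2 for *pup-2(0)*, 3 for *pup-3(0)* and 5 for the count shared by the 4 strains. In *pup-3(0)* 1 was called with DESeq2 size factors, a mean of at least 1 CPM, a minimum count of 50, no filter, siRNAs alone or total counts as scaling. For *pup-1/-2(0)* against *pup-1(0)* the count was 1 with a minimum count of 50, no filter or total counts, 8 with siRNAs alone, and 0 with only the compared genotypes in the fit. A minimum count of 50 gave 10 for *pup-1/-2(0)* against wild type with fewer members tested. Fits of only the compared genotypes gave 9 for *pup-1/-2(0)* and 0 for *pup-2(0)* against wild type, and 1 for the quadruple against the triple mutant. Wild-type replicates 1 to 3 alone gave 10 for *pup-1/-2(0)*, 2 for each of the single mutants that keep *pup-1* and 5 shared, and replicates 4 to 6 alone gave 2 for *pup-3(0)* and 5 shared. Without the 5 shallowest libraries, a choice made after seeing the data, the count was 8 for *pup-1/-2(0)* against *pup-1(0)*, 2 for *pup-2(0)* and 5 shared.

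With the replicate block, in which wild-type replicates 4 to 6 have no partner, 57 of 77 calls remained, and the counts were 2 for each of the single mutants that keep *pup-1* and 5 shared. For *pup-1(0)* against *pup-2(0)*, where the numbers pair the libraries, the block gave 6, the same as without it. In the other comparisons r did not reach the set minimum in every library, so it is not known whether the numbers pair the libraries.

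The median clec share of siRNA counts over libraries was 0.243%, or 0.165% of all sRNA counts and 0.159% without *clec-255*. Leaving out each library in turn gave 6 to 10 DA members for *pup-1(0)*, 1 to 2 for *pup-2(0)*, 0 to 2 for *pup-3(0)*, 0 to 0 for *pup-4(0)*, 13 to 20 for *pup-1/-2(0)*, 9 to 14 for the triple and 11 to 18 for the quadruple mutant against wild type. It gave 0 to 10 for *pup-1/-2(0)* against *pup-1(0)*, 0 to 4 for the triple against the double, 0 to 0 for the quadruple against the triple mutant and for the interaction, 4 to 7 for *pup-1(0)* against *pup-2(0)*, 4 to 7 against *pup-3(0)* and 6 to 10 against *pup-4(0)*, and 3 to 5 shared. Of 621 values with 1 library left out, 536 kept their call, 85 lost it and 0 reversed.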
